A study of Mus musculus with 15 samples.

Results

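Srf-null mouse embryonic stem (ES) cells and a rescue line derived from them were compared across all genes from 10 to 180 min of serum. The comparison covered 8 of the 15 arrays of the series, 4 of the Srf-null line (E100-/-) and 4 of the rescue line (E100-/- rescue), chosen by their titles and paired by time at 10, 30, 60 and 180 min. Both lines were given fetal bovine serum (FBS), and both descend from cells that lack Srf. Nothing in the labels tells by what construct the line was rescued, or whether either line is a single clone, so what was put back and under which promoter is not known here. The wild-type line E14 at the same times supplied 4 further arrays that entered the estimate of the spread, and its values are given for reference. The 0 min arrays were left out, among them an array labelled rescue 0 min that goes against its label in Igf2, which lay below 0 there and on every Srf-null array. There was 1 array for each line and time, so the 4 times stood for replicates. The p-values therefore measure the spread over times that line and time leave in the fit of all 3 lines. They do not measure the spread between independently made lines. An exact paired test of a single value over 4 times could not go below p = 0.125.

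Serum response factor (SRF) is a transcription factor that binds a DNA motif called the CArG box. Together with MRTF cofactors, which respond to the pool of free actin, it controls genes of the actin cytoskeleton, and together with ternary complex factors, which respond to MAP kinase signalling, it controls immediate-early genes such as Egr1. In mouse embryos SRF is needed for mesoderm to form, while ES cells without it stay viable. Srf had 0 probe sets in the annotation of this array, so the genotype could not be checked by its own transcript.

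Both lines carried the ES cell markers. Of the 8 markers (Pou5f1, Sox2, Zfp42, Fgf4, Utf1, Tdgf1, Nanog and Dppa5a), all 8 lay above the floor of measurement on all 8 arrays, and their summed level was 78027 to 102798 normalized intensity units in Srf-null cells and 70904 to 89328 in rescue cells. Of the markers of other cells, the sum of 6 fibroblast genes was 809 to 1361 and 1052 to 1531 in the same order, with Col1a2 at the floor throughout. The sum of 4 primitive endoderm genes was 800 to 2132 and 857 to 2090. The sum of 3 trophoblast genes was 199 to 438 and 121 to 384, with Hand1 at the floor throughout and Cdx2 above it on 1 array. The sum of 3 neural genes was 440 to 1506 and 424 to 871, and 1 of the 3 mesoderm genes (Kdr) was on the array, at 158 to 729 and 372 to 886. In limma's test described next, no marker of other cells was called by the probe set summed here, and Fgf4 was the one ES marker that was. A second probe set of the endoderm gene Dab2 was called higher, from 4, -107, -339 and -134 in Srf-null cells, all below the floor, to 301, 353, 296 and 179 in rescue cells (adjusted p = 0.00786). That call was lost with the 8 compared arrays alone in the fit (adjusted p = 0.0808). The summed probe set of Dab2 was brighter, at 342 to 814 in Srf-null and 295 to 709 in rescue cells (-0.32 ± 0.63, limma adjusted p = 0.876). In bulk RNA, fewer cells of a type and less RNA per cell cannot be told apart.

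The arrays differed in quality in a way that overlapped the lines. Values at or below 0 made up 37.1% to 41.6% of Srf-null 30, 60 and 180 min and 37.4% of rescue 10 min, against 26.7% of Srf-null 10 min and 25% to 26% of rescue 30, 60 and 180 min. The 2% trimmed mean ran from 591 to 1220. The beta-actin control ratio of 3' over 5' signal, a sign of RNA degradation, was 1.79, 1.64, 3.83 and 1.94 on the Srf-null arrays at 10, 30, 60 and 180 min and 0.989, 1.13, 0.914 and 1.42 on the rescue arrays. Every Srf-null ratio was above every rescue ratio, and the part of this difference in the results was not tested. Arrays of the rescue line correlated with each other across probe sets (not independent points) at r = 0.917 to 0.94, Srf-null arrays at 0.891 to 0.943, and arrays of different lines at 0.865 to 0.94.

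Over all genes, rescue cells differed from Srf-null cells in a small set of transcripts, some at the floor in 1 line but most above it in both. Of 9198 probe sets tested, 125 were higher (1.36%) and 96 lower (1.04%) in rescue cells, 221 in all (2.4%), at a limma adjusted p under 0.05, and 1273 had an unadjusted p under that value. Higher transcripts had a median change of 1.36 on the log2 scale (2.57-fold), with 37 above 2. Lower transcripts had a median of -1.15 (2.22-fold), with 15 beyond 2. All 221 had the same direction at each of the 4 times, and the values of both lines did not overlap for 207 of them, against 891 of all 9198 tested (9.69%). In 6 genes 2 or more probe sets were called, with 1 direction each. Called genes had 68 further tested probe sets that were not called, of which 50 had the direction of the call and the rest did not. Among the calls, 13 higher transcripts lay at the floor on all 4 Srf-null arrays and 3 lower ones on all 4 rescue arrays, so their changes are lower limits. A further 28 calls had 1 to 3 arrays of the lower line at the floor, and the size of their changes depends on where the floor was set, so folds of such genes are given as at least that large. The floor was 85 normalized intensity units.

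**Figure D1:**
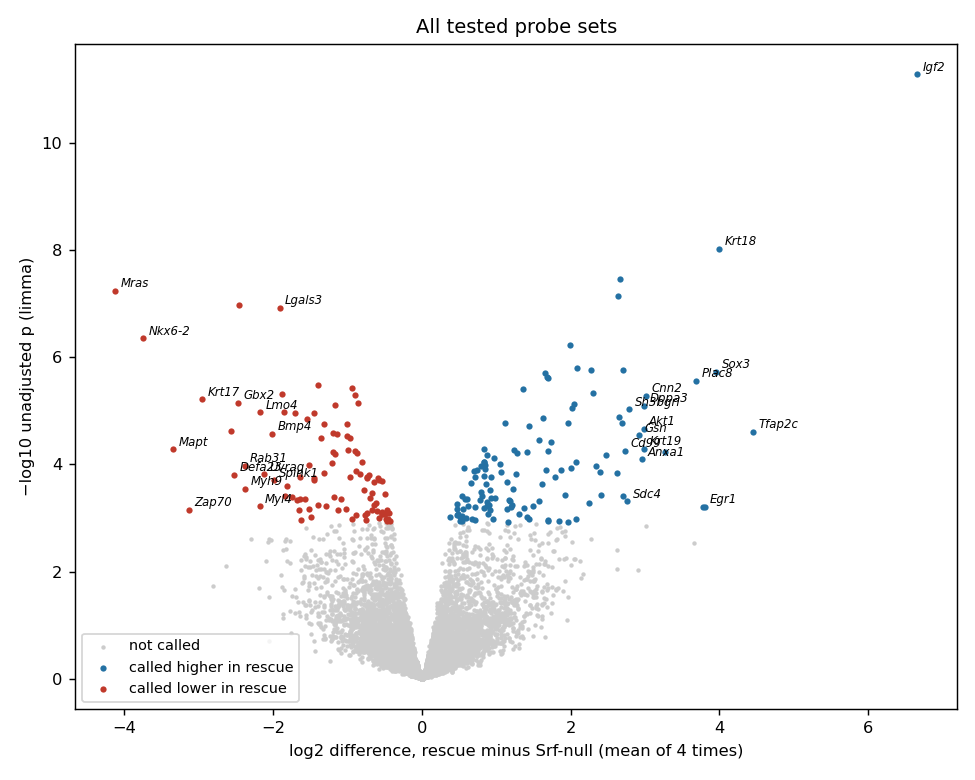
Each point is 1 of the 9198 probe sets tested, with the mean log2 difference between rescue and Srf-null cells over 4 times on the x axis and the negative log10 of limma's unadjusted p on the y axis. Blue points (125) were called higher in rescue cells and red points (96) lower, and Igf2 stands farthest out on both axes.

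The number of calls depended on single arrays and on scaling, while the direction of the called probe sets did not change in any of the 27 alternative settings. These probe sets were selected on the same arrays and had 1 direction at all 4 times. Their kept direction was thus largely fixed in advance and is little evidence of stability. Leaving out 1 array at a time gave 42 to 104 higher and 35 to 76 lower calls. The total of 221 fell to 135 without rescue 10 min, 77 without rescue 30 min, 88 without rescue 60 min and 121 without rescue 180 min. It fell to 104 without Srf-null 30 min, and stayed within 1.5 times of 221 without Srf-null 10 min (180), 60 min (155) or 180 min (163). Scaling all arrays to a common median gave 81 higher and 16 lower calls, 83.5% higher against 56.6% in the quantile-normalized values, with the median of all probe sets at 0.25. With the share of values at or below 0 as a term in the model, 32 were higher and 34 lower, and the 221 probe sets had a median size of 0.966 times the reported one. With the 8 compared arrays alone in the fit, 121 were called, among them 116 of the 221. Egr1, Anxa1, Mt1, Rhob and Plaur, reported below, were among the genes that then lost their calls.

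Of 39 genes of the actin cytoskeleton that SRF and MRTF control, 7 were called higher and 1 lower in rescue cells, 20.5% against 2.8% of all 6575 genes (1.55% higher and 1.25% lower). The higher members were Actg1, Actc1, Lima1, Tpm4, Csrp1, Cnn2 and Gsn, the lower one was Myh9, and the list median was 0.21 on the log2 scale against -0.01 for all genes. As members were picked with earlier results of these data known, shares of calls in this and later lists are no independent evidence. Without rescue 10, 30 or 60 min 4 members were called higher in each case, and without any 1 of the other 5 arrays 5 to 7. Actg1 encodes cytoplasmic gamma-actin. It measured 12530, 12606, 7327 and 14004 normalized intensity units in Srf-null cells at 10, 30, 60 and 180 min and 36013, 37018, 32948 and 41633 in rescue cells. Every rescue value was above every Srf-null value, and the wild-type values (27390 to 38839) lay with the rescue values. The mean change over 4 pairs was 1.70 ± 0.18 (log2 ± limma SE, limma adjusted p = 0.0014), or 3.26-fold. Here and below the SE comes from the fit of all 12 arrays, not from the 4 pairs alone. The call of Actg1 was lost with arrays scaled to a common median (adjusted p = 0.0708) or trimmed mean (adjusted p = 0.0735).

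Cnn2, calponin 2, an actin-binding protein of non-muscle cells, lay at 12, 76, 31 and 7 in Srf-null cells, all below the floor, and at 602, 566, 961 and 664 in rescue cells. The wild-type values, 519 to 877, spanned nearly the same range as the rescue values. Cnn2 was therefore at least 8.04-fold higher in rescue cells (3.01 ± 0.34, limma adjusted p = 0.002). Gsn, gelsolin, which severs actin filaments, was also below the floor on all 4 Srf-null arrays and measured 817, 595, 1050 and 339 in rescue cells, at least 7.59-fold higher (2.92 ± 0.40, limma adjusted p = 0.00504). Csrp1, a LIM protein that binds the actin cross-linker alpha-actinin, measured 96, 129, 186 and 351 in Srf-null cells and 943, 826, 1259 and 1300 in rescue cells, a 6.29-fold difference without overlap (2.65 ± 0.33, limma adjusted p = 0.00328).

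The tropomyosin gene Tpm4 rose 3.07-fold, the cardiac actin gene Actc1 2.72-fold and Lima1, which encodes an actin-bundling LIM protein, 1.79-fold. The probe sets of Actc1 and of Actb, given below, are of classes that can also read related transcripts, and other actins are close in sequence. Further probe sets of such classes include those of Atf3, Anxa1 and Gap43, the called one of Dab2 and a second one of Myh9. Both probe sets of Sox3 and of Bmp4, and those of Igf2, Krt17, Zap70, Peg10 and Stmn2, also have names of non-standard classes. Not every target followed. Acta2, smooth-muscle actin, lay below the floor on all 8 arrays of both lines (-617 to 62) but at 654 to 1221 in wild-type cells. Tagln (transgelin) measured 150, 385, 1024 and 62 in Srf-null cells and 641, 736, 676 and 1642 in rescue cells, which overlap, against 2130 to 2865 in wild-type cells (1.68 ± 0.62, limma adjusted p = 0.251). Vcl, the focal adhesion protein vinculin, had rescue values (1911 to 2410) above all Srf-null values (842 to 1537) but was not called (0.77 ± 0.23, limma adjusted p = 0.135). Neither were Actb (0.21 ± 0.45, limma adjusted p = 0.889), whose direction turned in 4 of 27 settings, and Fhl2 (0.32 ± 0.27, limma adjusted p = 0.657). Zyx had 1 probe set, which was too low to be tested.

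Myh9, the heavy chain of non-muscle myosin IIA, went the other way. It measured 2318, 2152, 2141 and 2499 in Srf-null cells and 424, 471, 711 and 1127 in rescue cells. Rescue values were below all Srf-null and all wild-type values (2421 to 3451), and the change was -1.85 ± 0.23 (limma adjusted p = 0.00285). A second probe set of Myh9 was lower too (-2.37 ± 0.43, limma adjusted p = 0.0211), although that call was lost without any 1 of 6 arrays (adjusted p = 0.0533 to 0.0978).

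A CArG box within 250 bases upstream of the start to 50 bases downstream was found in 6 of 84 promoters of genes with a probe set called higher (7.14%) and 1 of 70 of genes called lower (1.43%), against 96 of all 5292 tested genes with a RefSeq promoter (1.81%). The search asked for an exact match to the CArG consensus on either strand. The 6 were Actc1, Actg1, Cnn2, Gsto1, Igf2 and Lima1, and the lower gene was Fermt2. The box was also held by 89 of 5138 promoters of uncalled genes (1.73%), among them that of Vcl, so it alone did not mark a gene as called. The boxes of the 4 higher actin-linked genes are shown because this is the group SRF is known to control, and that of Igf2 because it had the largest change. Each stretch reads 5′ to 3′ on the strand of the gene, from RefSeq on build GRCm38.p6, with the box in capitals. They lie at chr11:120348556-120348605 (Actg1, minus strand), chr10:79988524-79988573 (Cnn2, plus strand), chr15:99820167-99820216 (Lima1, minus strand), chr2:114052893-114052942 (Actc1, minus strand) and chr7:142661397-142661446 (Igf2, minus strand), upstream of the start of the gene in each case.
Actg1: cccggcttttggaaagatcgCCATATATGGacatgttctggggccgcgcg
Cnn2: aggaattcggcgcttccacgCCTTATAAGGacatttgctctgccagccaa
Lima1: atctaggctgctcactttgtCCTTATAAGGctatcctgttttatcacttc
Actc1: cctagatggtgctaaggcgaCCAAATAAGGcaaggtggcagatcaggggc
Igf2: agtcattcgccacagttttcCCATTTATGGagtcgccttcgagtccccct
Cnn2 and Lima1 hold the same box letters. A match describes the sequence and is not a measured binding site.

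**Figure D2:**
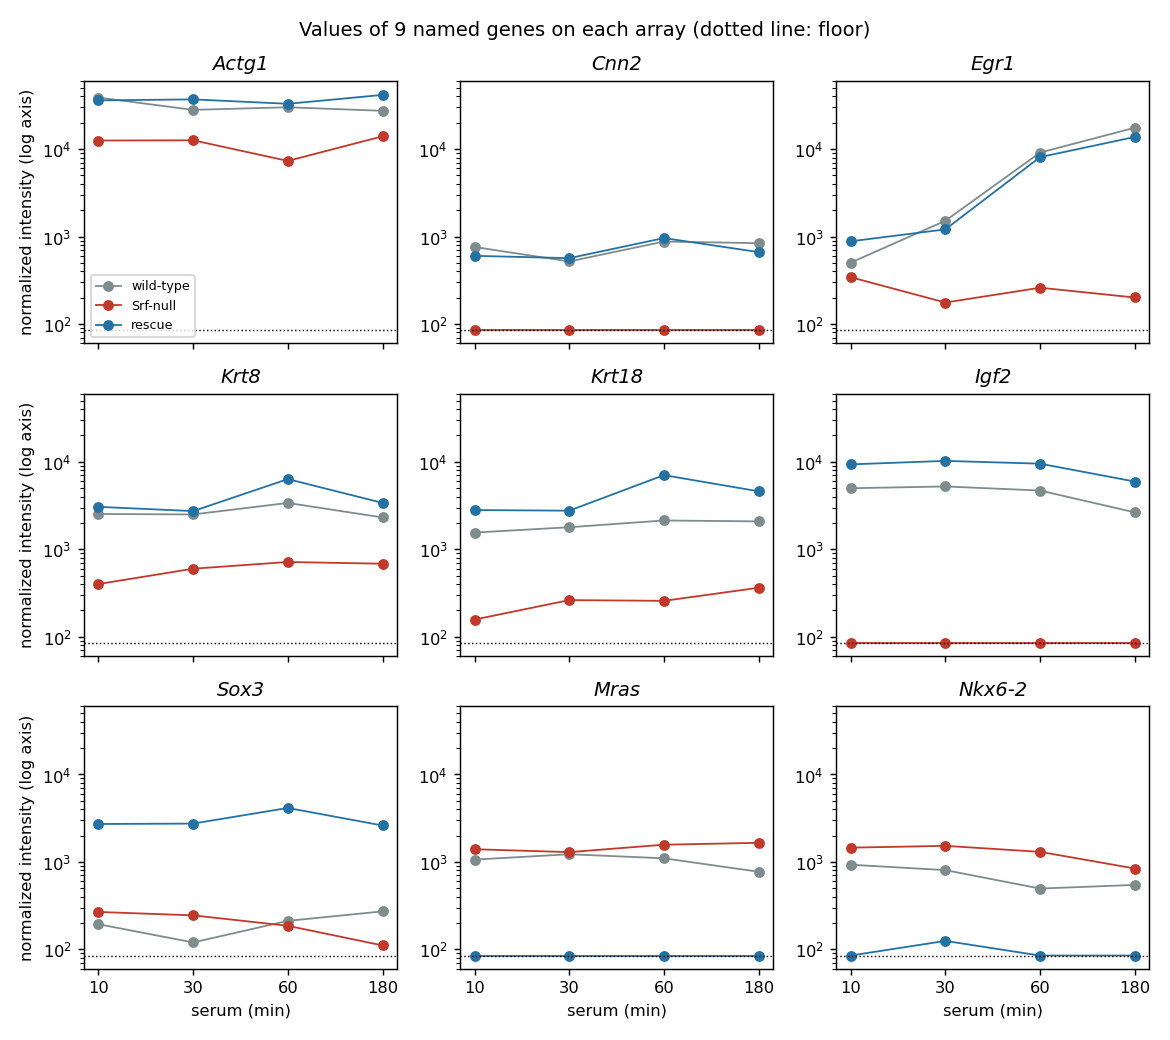
Normalized intensity (log axis) of 9 genes on each array against minutes of serum, with wild-type cells in grey, Srf-null cells in red and rescue cells in blue, 1 array per point and values below the floor of 85 drawn at the dotted line. Actg1, Cnn2, Egr1, Krt8, Krt18 and Igf2 are higher in rescue than in Srf-null cells at all 4 times, the rescue values of Sox3 lie above, and those of Mras and Nkx6-2 below, all values of both other lines.

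Immediate-early genes, the fast transcriptional answer to growth factors, were called higher for 6 (Btg2, Plk2, Dusp1, Rhob, Egr1 and Atf3) and lower for 3 (Mcl1, Klf4 and Plaur) of 38 tested, 23.7% in all, with a median of 0.07. Leaving out 1 array gave 1 to 5 higher and 0 to 2 lower, with 1 higher without rescue 60 or 180 min, so these counts rest on single arrays. Egr1, a zinc-finger transcription factor and a known SRF target, measured 343, 176, 260 and 201 in Srf-null cells at 10, 30, 60 and 180 min. In rescue cells it measured 882, 1208, 8094 and 13748, and in wild-type cells 503, 1515, 9120 and 17551. The Srf-null values stayed low at every time, while the rescue values were high from 60 min on, near those of wild-type cells. The difference was 1.36, 2.78, 4.96 and 6.10 on the log2 scale at the 4 times, with a mean of 3.80 ± 0.77 (limma adjusted p = 0.0338). Because the difference changes with time, its spread is wide, and the call was lost when any 1 array other than Srf-null 10 min was left out (adjusted p = 0.0661 to 0.14).

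Atf3, a stress-responsive transcription factor, measured 158, 218, 469 and 573 in Srf-null cells and 595, 600, 3116 and 5522 in rescue cells. All rescue values exceeded all Srf-null values, and Srf-null cells also had their highest values at 60 and 180 min (2.34 ± 0.38, limma adjusted p = 0.0114). The call was lost without rescue 30, 60 or 180 min (adjusted p = 0.0543 to 0.0635). Rhob, a small GTPase of actin filaments and endosomes, measured 734, 641, 1452 and 2177 in Srf-null cells and 1105, 956, 3724 and 4931 in rescue cells, so both lines were highest at 60 and 180 min (0.93 ± 0.16, limma adjusted p = 0.0146). Its call was lost without rescue 60 or 180 min or Srf-null 180 min (adjusted p = 0.052 to 0.082). Btg2, an antiproliferative gene, was 1.95-fold higher (limma adjusted p = 0.00953), a call that held without any 1 of the 8 arrays but was lost without the time block (adjusted p = 0.0834), with the share of values at or below 0 as a term (adjusted p = 0.101), with no scaling (adjusted p = 0.625) and with all 15 arrays (adjusted p = 0.134).

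Other immediate-early genes were not called. Ccn1, a matricellular protein and known SRF target, measured 0, 42, -48 and 196 in Srf-null cells and 213, 176, 1013 and 1761 in rescue cells, which overlap (2.28 ± 0.56, limma adjusted p = 0.0751). It was called without Srf-null 30 min (adjusted p = 0.0471) and with the floor at the 35th percentile (adjusted p = 0.028). Fosb, an AP-1 subunit, measured 1311 to 1621 in Srf-null cells and 1402, 1250, 4956 and 4685 in rescue cells (0.78 ± 0.35, limma adjusted p = 0.365). Its rescue values were high at 60 and 180 min. Junb gave 0.88 ± 0.54 (limma adjusted p = 0.52). Fos was low in both lines, at or below 231 (0.05 ± 0.45, limma adjusted p = 0.986), and its direction turned in 8 of 27 settings. Myc, with a negative difference at all 4 times, gave -1.16 ± 0.40 (limma adjusted p = 0.204) and was called with the floor at the 50th percentile (adjusted p = 0.0457). Among the lower genes, Plaur, the urokinase receptor, measured 461, 792, 1924 and 1308 in Srf-null cells and 236, 232, 506 and 316 in rescue cells (-1.68 ± 0.33, limma adjusted p = 0.0288), and its call was lost without any 1 array other than Srf-null 10 min (adjusted p = 0.0522 to 0.126).

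A test of whether the line difference at 30 and 60 min departed from that at 10 and 180 min called 0 of 9198 probe sets (lowest limma adjusted p = 1, with 358 at an unadjusted p under 0.05 and 4 residual degrees of freedom). Without the filter on low values, 4 probe sets were called. The contrast averages 10 with 180 min, so a difference that rises steadily with time largely cancels in it. Egr1, with differences of 1.36, 2.78, 4.96 and 6.1 at the 4 times, gave 0.14 ± 1.73 there. The absence of calls therefore does not show that line differences were constant over time.

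Epithelial genes held the highest share of calls among the 28 lists. The lists were chosen with earlier results of these data known, so this rank is no independent evidence. Of 20 keratin and epithelial genes tested, 7 were higher (Krt8, Krt18, Krt19, Dsp, Anxa1, Cldn6 and Cldn7) and 3 lower (S100a10, Lgals3 and Krt17), 50%, with a median of 0.53. Without rescue 60 min 3 were called higher, and without any 1 of the other 7 arrays 5 to 7. Krt8 and Krt18 encode the paired keratins of simple epithelia. Krt18 measured 157, 262, 257 and 363 in Srf-null cells and 2806, 2760, 7036 and 4594 in rescue cells, 16-fold higher (4.0 ± 0.23, limma adjusted p = 4.27e-05). Krt8 measured 400, 599, 715 and 683 in Srf-null cells and 3053, 2729, 6340 and 3388 in rescue cells, 6.25-fold higher (2.64 ± 0.19, limma adjusted p = 0.00013). For both keratins the lines did not overlap, the rescue value at 60 min was the highest, and the wild-type values (2310 to 3383 for Krt8 and 1551 to 2133 for Krt18) lay well above those of Srf-null cells.

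Krt19, another simple-epithelial keratin, lay below 0 on all 4 Srf-null arrays and at 464, 601, 1329 and 564 in rescue cells, at least 7.96-fold higher (2.99 ± 0.44, limma adjusted p = 0.00786). The wild-type values of Krt19, -200 to 235, were lower than every rescue value. Dsp, the desmosomal plaque protein desmoplakin, was 3.19-fold higher. The tight-junction genes Cldn6 and Cldn7 were 5.54-fold and 3.88-fold higher. Anxa1, a membrane-binding annexin, measured 199, 284, -93 and 14 in Srf-null cells and 813, 973, 1315 and 1420 in rescue cells (at least 2.96 ± 0.46 with 2 Srf-null arrays at the floor, limma adjusted p = 0.00988), a call lost without rescue 60 min (adjusted p = 0.0576). Cdh1, the epithelial cadherin that ES cells also use, gave 0.05 ± 0.12 (limma adjusted p = 0.898), with values of 2119 to 2939 and 2362 to 2793 that overlapped.

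The lower epithelial genes were also clear of overlap. Krt17, a keratin of stratified epithelium and skin appendages, measured 786, 906, 696 and 798 in Srf-null cells and 41, 179, -74 and 12 in rescue cells, 3 of them below the floor, at least 7.75-fold lower (-2.95 ± 0.34, limma adjusted p = 0.00222). Wild-type cells, at 451 to 780, were nearer to the Srf-null level, so Krt17 was low in rescue cells against both other lines. Lgals3, the sugar-binding protein galectin-3, measured 4554, 5699, 5802 and 4509 in Srf-null cells and 1291, 1273, 1491 and 1372 in rescue cells (-1.91 ± 0.14, limma adjusted p = 0.000157). Its wild-type values, 1648 to 2553, lay between both lines.

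The trophoblast list shared several of these genes. Of 20 tested, 7 were higher (Krt8, Krt18, Krt19, Igf2, Rhox5, Tfap2c and Plac8) and 1 lower (Bmp4), 40%, with a median of 0.55, and the same counts were found without any 1 of the 8 arrays. With all 15 arrays in the fit 2 were higher, and with no scaling 0 were lower. Krt8, Krt18, Krt19 and Igf2 stand in other lists too and are not specific to trophoblast, and the defining trophoblast genes Cdx2, Eomes and Hand1 were not called, with the levels given above. Tfap2c, the transcription factor AP-2 gamma, lay at -231, -169, -284 and 852 in Srf-null cells and at 2829, 3255, 2929 and 4457 in rescue cells (at least 4.45 ± 0.60 with 3 Srf-null arrays at the floor, limma adjusted p = 0.00468). The Srf-null value at 180 min stood apart from the other 3, and the wild-type values were 479 to 929. Rhox5, an X-linked homeobox gene of the placenta and germ line, measured 728, 747, 331 and 664 in Srf-null cells and 3920, 4227, 2865 and 4016 in rescue cells, 6.32-fold higher (2.66 ± 0.17, limma adjusted p = 0.000107). Plac8, first described in placenta, was at least 12.9-fold higher (3.69 ± 0.39, limma adjusted p = 0.00147), with 1117 to 2091 in rescue cells against -29 to 412 in Srf-null cells, where 2 arrays lay below the floor.

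Imprinted genes, expressed from 1 parental allele, were called higher for 7 (Igf2, Peg3, Peg10, Slc38a4, Mest, Impact and Sgce) and lower for 1 (Phlda2) of 25 tested, 32%, with a median of 0.37. The count of higher genes was 6 without rescue 10 min or Srf-null 180 min and 3 or 4 without any 1 of the other 6 arrays. The 7 are known to be expressed from the paternal allele in mouse tissues, and Phlda2 from the maternal allele. Igf2, a fetal growth factor, was below 0 on all 4 Srf-null arrays (-673, -922, -1294 and -1410) and among the brighter transcripts in rescue cells, at 9337, 10240, 9513 and 5942. The difference was at least 101-fold (6.66 ± 0.18, limma adjusted p = 4.72e-08), and Igf2 was called in 27 of 27 alternative settings. Wild-type cells, at 2640 to 5223, lay below all rescue values.

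Peg3, a zinc-finger gene, measured 445, 774, 694 and 553 in Srf-null cells and 2412, 2505, 5837 and 2200 in rescue cells (2.30 ± 0.26, limma adjusted p = 0.002), with wild-type values of 698 to 995. Slc38a4, an amino acid transporter, measured 1210, 726, 1770 and 469 in Srf-null cells and 3172, 3617, 4550 and 3164 in rescue cells (1.96 ± 0.25, limma adjusted p = 0.00365). Both genes were higher in every rescue array than in any Srf-null array. Peg10, a retrotransposon-derived gene, was 3.45-fold higher, a call lost without any of the rescue arrays at 30, 60 or 180 min or Srf-null 30 min (adjusted p = 0.0548 to 0.084). Phlda2, which restrains placental growth, measured 1691, 2237, 2327 and 1686 in Srf-null cells and 797, 1052, 581 and 790 in rescue cells (-1.32 ± 0.22, limma adjusted p = 0.0136), a call lost without rescue 30 min (adjusted p = 0.0598) or 60 min (adjusted p = 0.0522). Dnmt3a, which methylates DNA de novo, measured 686, 618, 404 and 647 in Srf-null cells and 1801, 2046, 1790 and 1786 in rescue cells, without overlap (1.68 ± 0.17, limma adjusted p = 0.0014). It was 1 of 2 genes called, with Cbx5, among 26 genes of DNA methylation and chromatin.

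Pluripotency genes were called higher for 1 (Dppa3) and lower for 5 (Fgf4, Nr0b1, Klf4, Gbx2 and Tbx3) of 33 tested, 18.2%, with a median of -0.30 and 6 positive differences. With arrays scaled to a common median 1 member was lower, and the list median lay at -0.39 relative to that of all genes, against -0.29 in the quantile-normalized values. Without any 1 of the 8 arrays 2 to 4 members were lower, 2 without rescue 10, 30 or 60 min or Srf-null 30 min. The core factors were not called. Pou5f1 gave -0.28 ± 0.23 (limma adjusted p = 0.669), Sox2 -0.14 ± 0.19 (limma adjusted p = 0.805) and Nanog -0.43 ± 0.23 (limma adjusted p = 0.446). The members that fell are known for the naive state or for early lineage choice.

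Gbx2, a homeobox gene of naive ES cells and later of the hindbrain, fell most among them, from 2517, 2748, 1972 and 2372 in Srf-null cells to 454, 338, 371 and 611 in rescue cells (-2.47 ± 0.29, limma adjusted p = 0.00242). Tbx3, a T-box factor, measured 1600, 1835, 1752 and 2278 in Srf-null cells and 581, 610, 779 and 1090 in rescue cells (-1.32 ± 0.17, limma adjusted p = 0.00365). In both genes the lines did not overlap, and wild-type values were 919 to 2173 for Gbx2 and 851 to 1055 for Tbx3. Klf4 was 1.66-fold and Fgf4 1.56-fold lower in rescue cells. Those calls were lost in single-array checks, Klf4 in 5 of 8 (adjusted p = 0.0524 to 0.0942) and Fgf4 in 7 of 8 (adjusted p = 0.0501 to 0.0904). Dppa3, a germ-line and early embryo gene, measured 414, 319, -76 and 400 in Srf-null cells and 2363, 1557, 1673 and 2876 in rescue cells, at least 7.92-fold higher with 1 Srf-null array at the floor (2.99 ± 0.35, limma adjusted p = 0.00249).

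Neural and ectodermal genes split, with 3 higher (Stmn2, Sox3 and Gap43) and 2 lower (Gbx2 and Nkx6-2) of 22 tested. Sox3, an X-linked transcription factor of neural progenitors, measured 268, 245, 186 and 111 in Srf-null cells and 2714, 2744, 4141 and 2609 in rescue cells (3.96 ± 0.40, limma adjusted p = 0.00127). Wild-type cells measured 194, 120, 212 and 272, within reach of the Srf-null values and below every rescue value. A second probe set of Sox3 was also higher (2.04 ± 0.24, limma adjusted p = 0.00242), with wild-type values of 557 to 1012 against 2292 to 3832 in rescue cells. Both probe sets of Sox3 are of the non-standard classes named above. Stmn2, a neuronal microtubule regulator, was 2.96-fold higher (1.57 ± 0.22, limma adjusted p = 0.00577). Gap43, a growth cone protein, was 3.25-fold higher, a call that was lost in each of the 8 checks that left out 1 array (adjusted p = 0.0826 to 0.163).

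Nkx6-2, a homeobox gene of the ventral neural tube, measured 1456, 1527, 1304 and 841 in Srf-null cells and -72, 125, 4 and -191 in rescue cells, 3 of them below the floor, at least 13.4-fold lower (-3.74 ± 0.32, limma adjusted p = 0.000509). It was called in 27 of 27 alternative settings, and wild-type cells, at 496 to 929, were above every rescue value. Mras, a Ras-related GTPase that acts upstream of the MAP kinase pathway, measured 1397, 1294, 1574 and 1654 in Srf-null cells and lay below 0 on all 4 rescue arrays. It was at least 17.3-fold lower in rescue cells (-4.12 ± 0.28, limma adjusted p = 0.00013), and wild-type cells measured 772 to 1224. Mapt, the microtubule-associated protein tau, measured 1154, 1164, 1067 and 1261 in Srf-null cells and 75, 119, 30 and 198 in rescue cells, a size that rests on the floor for 2 arrays (-3.34 ± 0.49, limma adjusted p = 0.00786). Unlike Mras and Nkx6-2, Mapt was low or scattered in wild-type cells too (-9 to 684).

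Further large falls were read by several kinds of genes. Lmo4, a LIM-only transcriptional cofactor, measured 1952, 1898, 2129 and 1902 in Srf-null cells and 285, 311, 559 and 729 in rescue cells (-2.17 ± 0.27, limma adjusted p = 0.00285). Bmp4, a secreted bone morphogenetic protein, fell by 2 probe sets of the non-standard classes named above, at -2.01 ± 0.27 (limma adjusted p = 0.00487) and -1.19 ± 0.16 (limma adjusted p = 0.00486). It was the 1 call among 18 genes of BMP and TGF-beta signalling. Rab31, a vesicle-traffic GTPase, was at least 5.2-fold lower with 2 rescue arrays at the floor, a call lost without rescue 30 or 60 min or Srf-null 30 min (adjusted p = 0.0501 to 0.0605). Zap70, a kinase of T-cell receptor signalling, was at least 8.76-fold lower with 3 rescue arrays at the floor, a call lost in each of the 8 checks that left out 1 array (adjusted p = 0.0503 to 0.163).

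Among the remaining large rises, Akt1, a kinase of growth factor signalling, measured 58, 25, 35 and 129 in Srf-null cells and 801, 800, 948 and 510 in rescue cells (at least 2.98 ± 0.40 with 3 Srf-null arrays at the floor, limma adjusted p = 0.0043). Serpinh1, the collagen chaperone HSP47, measured 443, 536, 234 and 155 in Srf-null cells and 2481, 2425, 1927 and 1331 in rescue cells (2.70 ± 0.27, limma adjusted p = 0.00127). Its clients Col4a1 and Col4a2, basement-membrane collagens, were 2.21-fold and 2.25-fold higher. Those 2 calls were lost in 6 of 8 single-array checks each (adjusted p = 0.0518 to 0.0817 and 0.0569 to 0.117). They were the higher members among 34 extracellular matrix and adhesion genes, of which Cd9 and Col18a1 were lower by at most 1.45-fold and called in 3 and 0 of 8 such checks.

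Mt1, a metallothionein that binds zinc and copper, measured 2037, 1481, 4548 and 14379 in Srf-null cells and 10436, 11130, 14831 and 20190 in rescue cells. Both lines were highest at 180 min, where the Srf-null value passed those of rescue cells at 10 and 30 min (1.87 ± 0.31, limma adjusted p = 0.0128). The call was lost without rescue 10 min (adjusted p = 0.0518) or Srf-null 30 min (adjusted p = 0.052). With Ddit4 and Gsto1, Mt1 made 3 higher calls among 24 metal and oxidative stress genes, a count of 0 to 3 with 1 array left out, since Ddit4 lost its call in 7 of 8 such checks and Gsto1 in 6. The cell-cycle inhibitor gene Cdkn1a was 2.35-fold higher and was the 1 call among 29 genes of G1 and S phase, lost in 6 of 8 single-array checks (adjusted p = 0.0505 to 0.0901).

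Against 2.8% of all genes called, groups of 18 to 32 genes with no call are near the background. Of 32 cytoplasmic ribosomal protein genes, 26 mitochondrial respiration genes, 25 proteasome genes, 22 genes of G2 and mitosis, 19 cholesterol synthesis genes and 18 mesoderm genes, 0 were called by limma, with medians of -0.12 to 0.02. At an unadjusted p under 0.05 these groups held 0, 2, 4, 3, 0 and 3 genes in that order, beside 1273 of all 9198 probe sets. Apoptosis regulators had 1 call among 19, Mcl1, which protects cells from death and was 1.39-fold lower (limma adjusted p = 0.0464, lost without any 1 array other than Srf-null 60 min). Bcl2, another protective gene, gave 0.33 ± 0.72 (limma adjusted p = 0.892), with its direction turning in 6 of 27 settings. Of 17 fibroblast feeder genes 1 (Fbln1, 1.64-fold) and of 14 interferon response genes 1 (Irf1, 1.82-fold) were higher, calls that were each lost in 6 of 8 single-array checks.

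**Figure D3:**
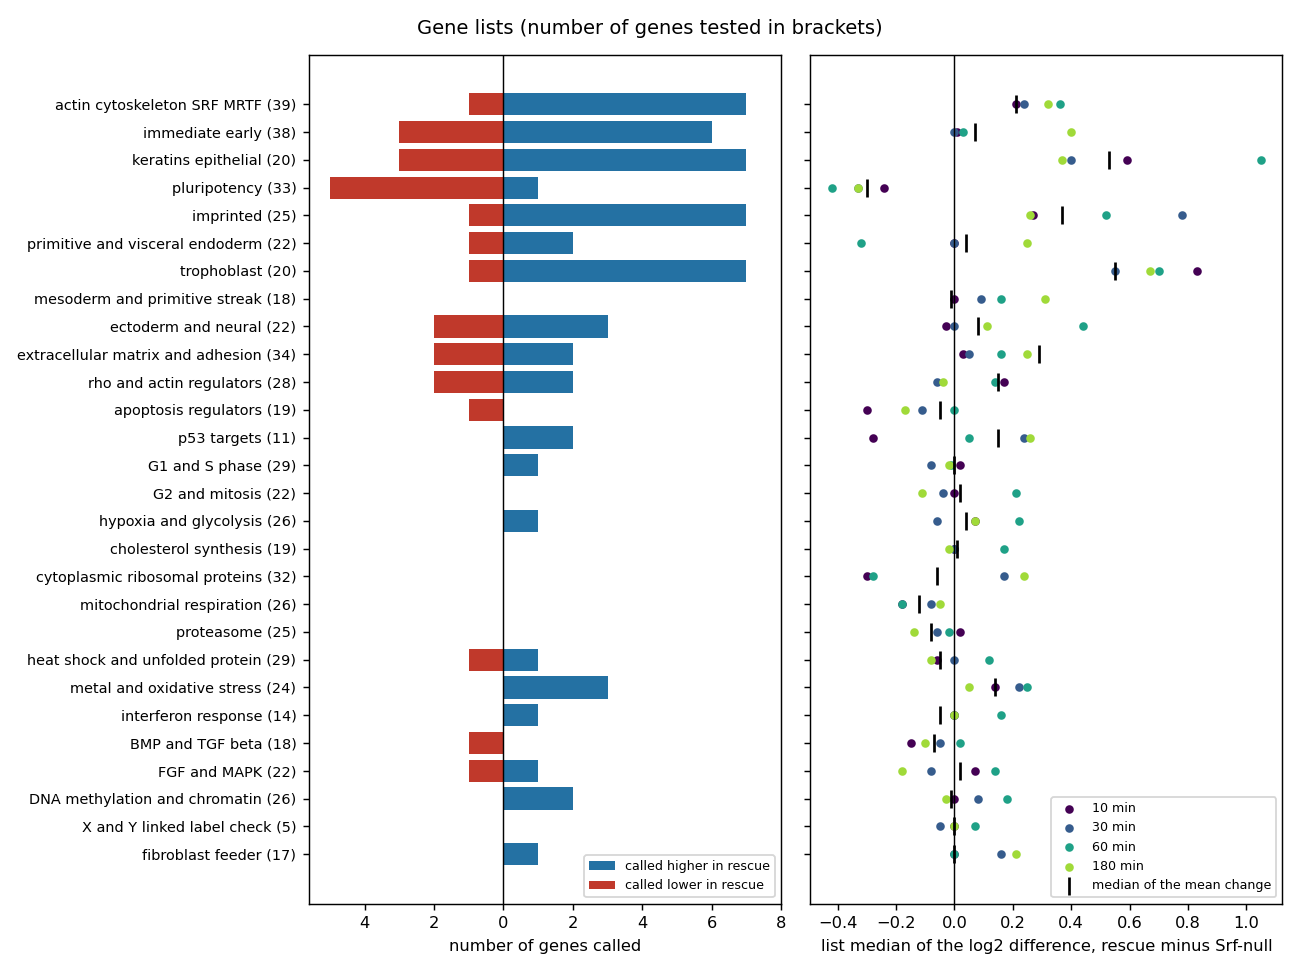
Left, the number of genes called higher (blue, to the right) or lower (red, to the left) in rescue cells for each of 28 gene lists, with the number tested in brackets. Right, the list median of the log2 difference at each time (dots) and over all 4 times (bars), where epithelial, trophoblast and imprinted genes lie above 0 at all 4 times and pluripotency genes below 0.

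The line difference was not spread evenly over chromosomes. Over 5100 genes at least 1 log2 unit above the floor, the median difference was -0.01 in all, and chromosome medians lay between -0.08 and 0.02 except on chromosomes 8 and 14. On chromosome 8, 191 of 273 genes (70%) were higher in rescue cells, against 49.4% of all genes, with a median of 0.16 and values of 0.23, 0.14, 0.20 and 0.16 at 10, 30, 60 and 180 min. The chromosome held 14 higher and 4 lower calls, against 98 and 79 among all 5100 genes. Wild-type minus Srf-null values had a median of 0.23 there, so both lines with higher values differed from the same Srf-null arrays. These medians are descriptions without a test, and the DNA of the lines was not measured here.

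**Figure D4:**
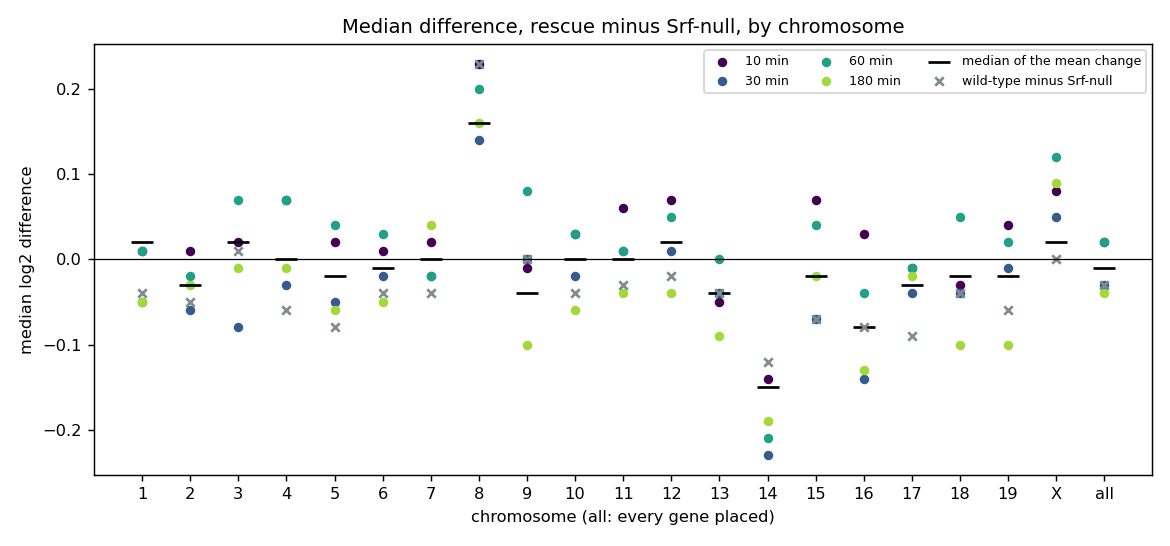
Median log2 difference between rescue and Srf-null cells for the genes of each chromosome at 4 times (dots) and over all times (bars), with crosses for wild-type minus Srf-null cells. Chromosome 8 (0.16) lies above and chromosome 14 (-0.15) below the other chromosomes at every time.

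On chromosome 14, 0 of 171 genes were called higher and 12 lower, against 98 and 79 of all 5100 genes. A positive difference was found in 36.3%, against 49.4% of all genes. The median of the whole chromosome was -0.15, beside -0.12 for wild-type minus Srf-null and -0.04 for rescue minus wild-type values. Over the whole chromosome, wild-type cells thus lay near rescue cells. The lowest values gathered at its far end. Over 11 neighbouring genes, from Sugt1 to Dock9, 0 of 11 were higher in rescue cells and the median was -0.94, the lowest of 4899 such windows together with its overlapping neighbours. Another window of this chromosome, from Gng2 to Comtd1, had 10 of 11 genes higher and a median of 0.5. Beyond Sugt1, 11 of 13 genes were lower, with a median of -0.94 (1.92-fold) and values of -1.07, -0.90, -0.49 and -1.0 at the 4 times, against -0.12 over the 158 genes up to Sugt1. Relative to the Srf-null mean and to all genes, that end measured -0.96, -0.89, -0.78 and -0.84 on the 4 rescue arrays, -0.20 to 0.22 on the Srf-null arrays and -0.35 to -0.13 on the wild-type arrays. Rescue arrays therefore stood apart from both other lines. The segment was picked after its values were seen, so no test is given.

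Of the 13 genes beyond Sugt1, 5 were called lower, against 79 of all 5100 genes. Klf5, a Krüppel-like factor of ES cells and epithelia, measured 13192, 15641, 13192 and 16457 in Srf-null cells and 5452, 8203, 6216 and 6253 in rescue cells (-1.17 ± 0.14, limma adjusted p = 0.00249). Commd6 measured 2205, 1998, 2190 and 2139 in Srf-null cells and 1052, 1072, 961 and 1198 in rescue cells, 2-fold lower (-1.0 ± 0.13, limma adjusted p = 0.00365). Wild-type cells were at 11074 to 13373 for Klf5 and 1657 to 2062 for Commd6, above all rescue values. Mycbp2, an E3 ubiquitin ligase, was 2.28-fold lower, Tm9sf2, a membrane protein of the Golgi and endosomes, 2.23-fold lower and Dock9, an activator of the GTPase Cdc42, 1.92-fold lower. The other 6 lower genes, from Diaph3 (-1.82 ± 0.45, limma adjusted p = 0.0757) to Lmo7 (-0.49 ± 0.29, limma adjusted p = 0.5), were not called, and Ubac2 and Zic2 had positive differences (1.23 ± 1.07 and 0.92 ± 0.46) that were not called either. A further 7 genes there were too near the floor to enter the median.

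**Figure D5:**
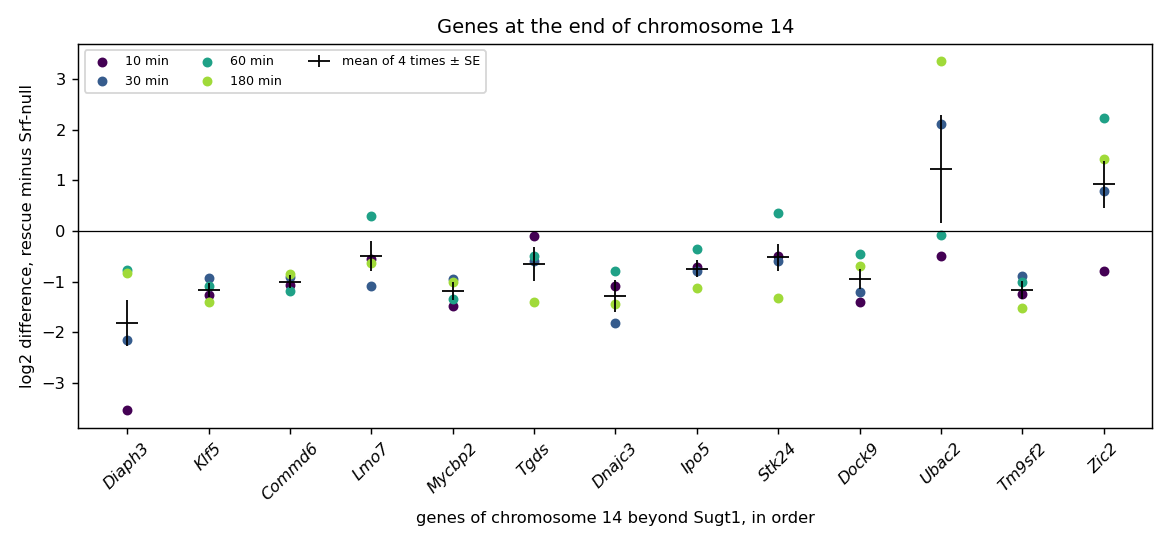
Log2 difference between rescue and Srf-null cells for the 13 genes of chromosome 14 beyond Sugt1, in order along the chromosome, at each of 4 times (dots) and as the mean of 4 times with its limma SE (bars). The means of 11 genes lie below 0, while Ubac2 and Zic2 lie above it and vary most between times.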

How the data were processed

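Per the labels, Affymetrix MGU74A arrays read total RNA of 3 mouse ES cell lines at 5 times of serum, 1 array per line and time. The values are the authors' deposited intensities, 1 for each of 12654 probe sets, and can fall below 0. How the authors scaled them, and with which software, is not given in the sources used here.

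Intensities were quantile-normalized over all 15 arrays, values under the 40th percentile (85.0, log2 6.41) were set to it as a floor, and log2 was taken. After 66 control probe sets were left out, the 9198 probe sets that exceeded the floor in 2 or more of 12 arrays were tested with limma 3.58.1 in R 4.3.3 (lmFit, eBayes with an intensity trend). The model held line and time over the 12 arrays of 10 to 180 min, with 6 residual degrees of freedom. In this balanced design the contrast equals the mean of the 4 paired differences, and wild-type arrays add to the spread only. Time, which titles give for every array, is the pairing block. Transcripts were called at a Benjamini-Hochberg adjusted p under 0.05, taken over every probe set tested. The number of arrays limits the precision.

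Probe sets were named by platform annotation with symbols updated through RefSeq. One symbol was given for 10298 probe sets, several for 363, and 1993 were not listed. For lists, a gene was read by its tested probe set with the highest mean. Named genes were the 15 largest changes in each direction with 1 sign at all times, up to 5 called members of each list by p, and a fixed set. Other list members were named with their list, and Cdh1, Nanog and genes at the end of chromosome 14 were named after their values were seen. The members and the 28 lists were chosen with earlier results of these data known, so a list's direction, share of calls and rank are no independent evidence. Chromosomes and promoters came from RefSeq tables of build GRCm38.p6. The fit was tested on simulated data. Alternatives changed scaling, floor, filter, arrays fitted, the time block, the trend, quality terms and each array or time. The 0 min arrays were left out of the comparison.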

Additional observations from a re-analysis of the deposited data

Results flagged for a closer look

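Single arrays stood apart within a line for 23 of 149 groups of 4 arrays, where the gap to the nearest value exceeded Dixon's 95% limit for its part of the range. The gap was taken on floored log2 values, so a group with 3 arrays at the floor and 1 above it was flagged by construction. This holds for Tfap2c, Akt1, Ccn1, Spink1, Uvrag, Krt17, Zap70 and Nkx6-2. The 4 arrays of a line also differ in serum time, so a chance rate of 1 in 20 does not apply to this count. In rescue cells the value at 30 min stood apart for Dnmt3a (2046), Fhl2 (1492), Uvrag (199), Krt17 (179) and Nkx6-2 (125). At 60 min it stood apart, on the high side, for both probe sets of Sox3 (4141 and 3832), Peg3 (5837), Zap70 (313) and Spink1 (87). At 180 min Igf2 (5942) was low, and Tagln (1642), Ddit4 (10029) and Hspa4 (9664) were high. In Srf-null cells the values apart were Plac8 at 10 min (412), Sh3bgrl at 30 min (166), Dppa3 (-76), Rhox5 (331) and Myl4 (1350) at 60 min, and Tfap2c (852), Akt1 (129), Ccn1 (196) and Mcl1 (10113) at 180 min. Several of these values lie near or below the floor of 85.

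The 0 min arrays, which the comparison left out, did not share its directions. Of the 221 called probe sets, 105 had the same direction at 0 min, 102 the opposite and 14 no difference. On the array labelled rescue 0 min the genes of chromosome 14 beyond Sugt1 measured 0.27 relative to Srf-null cells and all genes, against -0.96 to -0.78 on the other rescue arrays. Srf-null 0 min measured -0.57 there, outside the -0.20 to 0.22 of the other Srf-null arrays. For chromosome 8 rescue 0 min measured -0.01 against 0.13 to 0.23 on the other rescue arrays. Igf2 lay at -1829 on rescue 0 min and at 5942 to 10240 on the other rescue arrays. The nearest array to it was Srf-null 180 min (r = 0.936 over probe sets), although rescue 10 min was also nearest to a Srf-null array (r = 0.94). The array goes against its label in Igf2 and both chromosome values, and the cause was not tested.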

How the results depend on the processing

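All called probe sets that could be tested kept their direction in the 27 alternative settings, 221 of 221, or 219 with the floor at the 50th percentile. For named genes, 1202 of 1782 checks of called ones kept the call, 580 lost it and 0 reversed. Since calls were selected on the same arrays with 1 direction at all 4 times, the lack of reversals was largely fixed in advance. Higher and lower counts were 81 and 16 with a common median, 21 and 6 with no scaling, 68 and 51 with quantiles over the 8 arrays compared, 69 and 52 with those 8 arrays alone in the fit, 11 and 10 with all 15 arrays, 67 and 62 without the intensity trend, and 32 and 34 with the share of values at or below 0 as a term. With the 18S split (18S control signal above 10000 or not) as a term they were 155 and 142. With both terms, a setting added after seeing the data, they were 46 and 62. Leaving out 1 array or 1 time gave 32 to 104 higher and 23 to 76 lower. Without the time block (no replicate block) calls came to 134 higher and 107 lower and included 188 of the 221, so the pairing by time did not raise the count. Among named genes 11 lost their calls without it, including Egr1 (adjusted p = 0.0876), Atf3 (0.245), Mt1 (0.194) and Rhob (0.565). The test of 30 and 60 min against 10 and 180 min gave 4 calls with no filter. Of uncalled named genes, Ccn1 (in 2 settings) and Myc (in 1) were called, and 3 reversed. Fos, at 0.05, gave -0.01 with the floor at the 50th percentile, -0.43 with the share of values at or below 0, -0.21 with both terms and -0.36 to 0.54 with 1 array or time left out. Bcl2, at 0.33, gave -0.17 with 15 arrays, -0.32 with the share of values at or below 0 and -0.36 to 0.98 with 1 array or time left out. Actb, at 0.21, gave -0.03 with 15 arrays and -0.25 to 0.61 with 1 array or time left out. The causes were not tested. Relative to all genes, chromosome 8 stayed at 0.17 to 0.21 and the end of chromosome 14 at -1.03 to -0.78 in 19 settings. A floor at the 30th percentile could not be used, since that value is -10.9, and the 35th percentile replaced it after the data were seen.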
